A study of Mus musculus with 14 samples.

Results

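The replication-dependent histone cluster genes encode the core histones H2A, H2B, H3 and H4 and the linker histone H1 that package newly made DNA. They were taken as every row of the count table whose symbol starts with Hist1h, Hist2h, Hist3h or Hist4h, leaving out names with -ps, which gave 61 of 26683 genes. By symbol 5 encode H1, 17 H2A, 15 H2B, 11 H3 and 13 H4. In the GENCODE annotation of GRCm38, 50 lie on chromosome 13 (Hist1), 8 on chromosome 3 (Hist2), 2 on chromosome 11 (Hist3) and 1 on chromosome 6 (Hist4). RNA sequencing was done on splenic CD4 T cells of 8-month-old female mice of a lupus-prone congenic strain, TC (B6.NZM-Sle1NZM2410/AegSle2NZM2410/AegSle3NZM2410/Aeg/LmoJ), and of C57BL/6J (B6). TC carries the Sle1, Sle2 and Sle3 susceptibility intervals of the NZM2410 strain on the B6 background, so a strain difference cannot be assigned to an interval. The sort for follicular helper T cells (Tfh) took CD4 cells with CD44 and PD-1 and with little or no CD162, and the sort for naive T cells (Tn) took CD4 cells without CD44. The groups were TC Tfh and TC Tn from 3 TC mice, and B6 Tfh and B6 Tn from 4 B6 mice, each spleen giving both kinds of library.

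Most of these genes are transcribed during S phase, when NPAT and gene-specific factors act at the clusters. Their messenger RNAs usually end in a conserved stem-loop in place of a poly(A) tail, and the stem-loop is bound by SLBP, which takes part in 3' end processing, translation and decay. Some members are also known to make polyadenylated messages in cells that do not divide.

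The stem-loop is shown for members that the results turn on, since it is the element that sets this class of message apart. The stem-loop consensus (GG, any 2 bases, CTTTT, any base, AG, any 2 bases, CC) was searched on the sense strand of GENCODE M21 transcripts (GRCm38), and 39 of the 61 members held a match, against 124 of 141767 transcripts of all genes (0.0875%). By class, 3 of 5 H1, 8 of 17 H2A, 10 of 15 H2B, 7 of 11 H3 and 11 of 13 H4 genes held it. Capitals mark the match, with 5 flanking bases on each side.
Hist1h1c: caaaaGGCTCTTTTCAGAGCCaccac
Hist1h1e: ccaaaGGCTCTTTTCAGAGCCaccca
Hist1h3a: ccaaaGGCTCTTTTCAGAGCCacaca
Hist2h2ac: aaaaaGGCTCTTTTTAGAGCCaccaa
Hist3h2a: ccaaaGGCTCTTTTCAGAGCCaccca
Hist3h2ba: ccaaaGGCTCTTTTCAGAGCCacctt
Hist1h4d: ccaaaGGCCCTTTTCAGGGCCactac
Hist1h4i: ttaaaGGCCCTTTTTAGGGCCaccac
Hist2h4: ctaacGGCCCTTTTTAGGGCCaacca
Hist4h4: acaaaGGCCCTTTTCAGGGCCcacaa
The form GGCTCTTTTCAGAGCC was found in 22 members, and the form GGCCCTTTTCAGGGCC in 7. Hist1h1c and Hist1h3a, called higher in TC in the results given further on, hold the same letters as Hist3h2a and Hist3h2ba, which were not called between the strains. Hist2h4, called higher in TC, and Hist1h4i, not called, share theirs as well. No match lay in the annotated transcripts of Hist2h2be, Hist1h2bc, Hist1h1a, Hist1h2ak and Hist2h2bb among the members tested. Some transcripts without a match are short, at 393 bases in Hist1h2ak and 381 in Hist2h2bb, and may stop before the stem-loop. A missing match, here and in the counts by class, therefore does not show that a gene lacks it. The annotated transcript ran on past the stem-loop by 37 bases in Hist1h3a and 57 in Hist2h2ac, but by 840 in Hist1h1c, 1153 in Hist1h1e, 1257 in Hist2h4, 1643 in Hist3h2a and 2445 in Hist4h4.

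Promoters (250 bases before to 50 after the start, RefSeq, GRCm38.p6) were matched for 54 of the 61 members. Each is shown 5' to 3' on the gene's strand, for 3 of the 4 H1 genes called higher in TC (leaving out Hist1h1d), for Hist3h2a, and for the region between Hist2h2ac and Hist2h2be, whose starts lie 238 bases apart on opposite strands. Capitals mark 4 motifs, searched on both strands. The binding site of the general transcription machinery was searched as TATAAA. The site of the factor NF-Y was searched as CCAAT. The octamer known from H2A and H2B promoters was searched as ATTTGCAT. The element known from H1 promoters was searched as AAACACA. No occurrences of different motifs overlap in the promoters shown.
Hist1h1c, chr13:23738557-23738856, plus strand: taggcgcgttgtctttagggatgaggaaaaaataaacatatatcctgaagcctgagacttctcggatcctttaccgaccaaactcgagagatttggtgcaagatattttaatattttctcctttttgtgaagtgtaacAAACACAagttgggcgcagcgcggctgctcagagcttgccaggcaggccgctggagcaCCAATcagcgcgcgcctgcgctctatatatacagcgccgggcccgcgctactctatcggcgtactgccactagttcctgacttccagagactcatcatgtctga
Hist1h1e, chr13:23622509-23622808, minus strand: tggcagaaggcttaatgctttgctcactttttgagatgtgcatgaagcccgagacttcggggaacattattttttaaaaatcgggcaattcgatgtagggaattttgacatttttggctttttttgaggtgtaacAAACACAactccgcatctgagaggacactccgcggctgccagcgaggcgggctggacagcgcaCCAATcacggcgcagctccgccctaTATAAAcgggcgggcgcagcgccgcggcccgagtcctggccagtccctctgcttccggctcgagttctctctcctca
Hist1h1a, chr13:23763418-23763717, plus strand: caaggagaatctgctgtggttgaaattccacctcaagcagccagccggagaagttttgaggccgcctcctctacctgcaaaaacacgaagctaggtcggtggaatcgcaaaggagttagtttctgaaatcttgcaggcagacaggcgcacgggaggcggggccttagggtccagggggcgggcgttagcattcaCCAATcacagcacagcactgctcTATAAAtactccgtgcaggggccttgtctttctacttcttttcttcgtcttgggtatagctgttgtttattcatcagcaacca
Hist2h2ac, chr3:96220831-96221130, minus strand: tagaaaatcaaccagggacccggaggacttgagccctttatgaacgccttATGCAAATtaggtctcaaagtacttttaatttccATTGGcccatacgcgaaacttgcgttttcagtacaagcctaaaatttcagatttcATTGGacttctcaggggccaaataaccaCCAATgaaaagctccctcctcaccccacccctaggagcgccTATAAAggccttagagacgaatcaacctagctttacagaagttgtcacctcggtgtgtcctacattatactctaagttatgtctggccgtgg
Hist3h2a, chr11:58954435-58954734, plus strand: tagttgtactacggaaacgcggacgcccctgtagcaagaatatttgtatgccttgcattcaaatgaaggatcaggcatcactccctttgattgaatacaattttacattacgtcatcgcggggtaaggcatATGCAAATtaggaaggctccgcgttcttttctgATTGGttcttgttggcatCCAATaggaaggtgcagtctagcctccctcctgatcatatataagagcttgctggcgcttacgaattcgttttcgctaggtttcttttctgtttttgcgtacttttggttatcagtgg
CCAAT was present in every matched promoter of H1 (5), H2A (15), H2B (13) and H3 (9) genes, but in 3 of 12 of H4 genes (25.0%), against 37.4% of all 32544 RefSeq promoters. TATAAA was present in 63.0% of the members' promoters and 13.6% of all. The octamer was found in 7 of 15 H2A and 5 of 13 H2B promoters and in 1.75% of all. AAACACA was found in 4 of 5 H1 promoters and in 7.20% of all, and Hist1h1a is the H1 gene without it.

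Counts on these genes were few. Library totals ran from 15162309 to 20191558 counts, and all 61 members together took 22.01 to 94.8 CPM (counts scaled to a library total of 1e+06). Of the 61, 18 passed the filter on low counts and were tested, and 43 did not. The 43 comprised 6 genes with no counts in any library, 18 with 1 to 14 counts in all and 19 with 15 to 100. A gene could pass the filter through 1 group alone, so the 18 are described here without standing for the 61. Hist1h1c took 24.9% and Hist2h2be 22.8% of all member counts. Per kilobase of annotated exon, Hist1h1c had the highest mean over the 14 libraries at 7.51 CPM per kb, then Hist3h2ba at 5.45, Hist2h2be at 3.96, Hist2h2ac at 2.44 and Hist1h4i at 2.38 CPM per kb. The 20.3 CPM per kb of Hist1h1c in TC Tn stood above every other group mean of a member.

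Many members have near-identical coding sequences, and how reads in several places were counted is not given in the sources used here. The share of 50-base windows of a gene's transcripts that also occur in another gene's was 0% for Hist2h2be and Hist1h1a, 1.01% for Hist2h4, 2.25% for Hist1h1d, 6.75% for Hist4h4, 8.54% for Hist1h1c and 10.2% for Hist1h4d. It was 17.9% for Hist1h2be, 19.6% for Hist1h4c, 22.1% for Hist3h2ba and 28.9% for Hist1h4i. For Hist1h2bc it was 30.1%, for Hist3h2a 31.5%, for Hist1h1e 32.0% and for Hist2h2ac 38.6%. The largest shares were 49.5% for Hist1h3a, 52.3% for Hist1h2ak and 53.6% for Hist2h2bb. Counts on genes with shared windows are uncertain, and most so on the last named. Hist1h1e overlaps Hist1h2be on the same strand, Hist3h2a overlaps Trim17 on the same strand, and Hist1h2ak, Hist2h2ac, Hist2h2bb and Hist3h2a have annotated antisense genes. The strand setting of the counting is not given either.

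**Figure D1:**
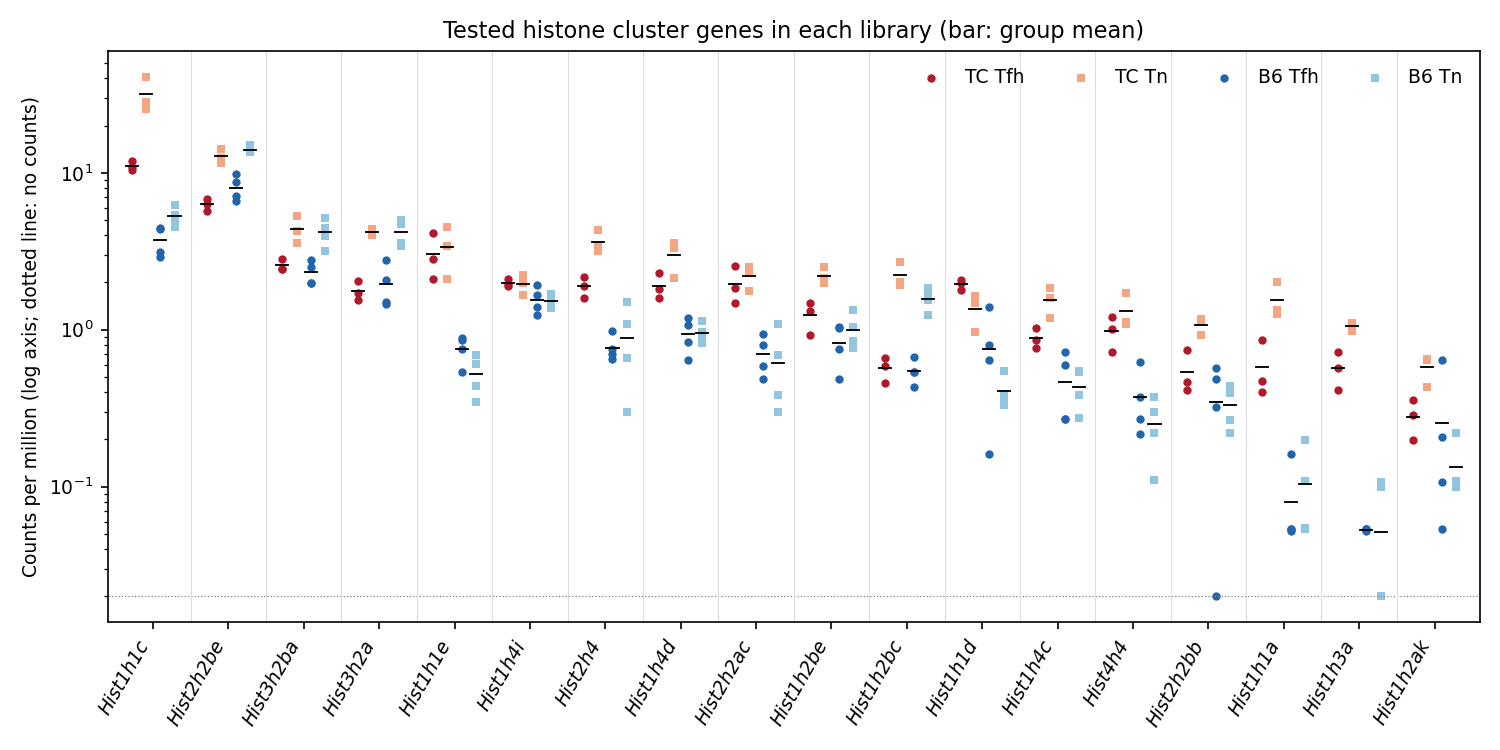
Level of each of the 18 tested genes, in CPM on a log axis, in every library, in the order TC Tfh, TC Tn, B6 Tfh and B6 Tn, with a bar at each group mean. Points on the dotted line had no counts. Hist1h1c lies at 25.7 to 40.9 CPM in TC Tn and at 4.50 to 6.23 CPM in B6 Tn, whereas Hist2h2be lies at 11.5 to 14.1 CPM in TC Tn and 13.6 to 15.1 CPM in B6 Tn.

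The summed level of the 61 genes lay higher in TC than in B6 in each cell type, and lower in Tfh than in Tn in each strain, with no overlap of the groups in any of these 4 settings. It was 41.9, 45.6 and 47.4 CPM in the TC Tfh libraries and 76.6, 94.8 and 84.1 CPM in the TC Tn libraries. In B6 it was 22.7, 31.4, 22.01 and 29.9 CPM in Tfh and 35.5, 41.8, 34.9 and 40.7 CPM in Tn. The means were 44.96 ± 2.81 in TC Tfh (SD, n = 3), 85.2 ± 9.14 in TC Tn (n = 3), 26.5 ± 4.84 in B6 Tfh (n = 4) and 38.2 ± 3.54 CPM in B6 Tn (n = 4). Without Hist1h1c and Hist2h2be the means of the other 59 genes were 27.6 in TC Tfh, 40.8 in TC Tn, 14.7 in B6 Tfh and 18.9 CPM in B6 Tn, in the same order as before. Without them the libraries of B6 Tfh (12.5 to 18.3 CPM) and B6 Tn (16.5 to 21.9 CPM) overlapped, while the groups of the other 3 settings did not. In these bulk libraries, fewer cells that express a gene and less of its RNA per cell cannot be told apart.

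The sums of the histone classes were each led by few genes. H1 genes summed to 37.9 ± 8.58 CPM in TC Tn and 6.33 ± 0.825 in B6 Tn, and to 17.0 ± 0.887 CPM in TC Tfh and 5.44 ± 1.21 in B6 Tfh. Without Hist1h1c, the other 4 H1 genes summed to 6.29 ± 1.61 CPM in TC Tn and 1.06 ± 0.123 in B6 Tn, and to 5.94 ± 0.962 CPM in TC Tfh and 1.71 ± 0.466 in B6 Tfh, with no overlap between the strains. H3 genes summed to 2.83 ± 0.335 CPM in TC Tn and 0.705 ± 0.0953 in B6 Tn, and to 2.19 ± 0.537 CPM in TC Tfh and 0.572 ± 0.187 in B6 Tfh. H2B genes summed to 23.8 ± 2.41 CPM in TC Tn and 21.4 ± 1.24 in B6 Tn, and to 12.6 ± 0.162 CPM in TC Tfh and 12.5 ± 2.09 in B6 Tfh, with overlapping libraries. Without Hist2h2be, the other 14 H2B genes summed to 11.1 ± 1.13 CPM in TC Tn and 7.37 ± 1.12 in B6 Tn, and to 6.31 ± 0.408 CPM in TC Tfh and 4.51 ± 0.803 in B6 Tfh, and the strains then did not overlap. H4 genes summed to 12.8 ± 1.68 CPM in TC Tn and 4.65 ± 0.726 in B6 Tn, and to 8.58 ± 0.747 CPM in TC Tfh and 4.81 ± 0.853 in B6 Tfh. H2A genes summed to 7.73 ± 0.447 CPM in TC Tn and 5.15 ± 1.14 in B6 Tn without overlap, and to 4.02 to 5.24 CPM in TC Tfh and 2.21 to 4.50 CPM in B6 Tfh with overlap. The sums without Hist1h1c or Hist2h2be were chosen after the data were seen. These sums carry no test.

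The first comparison set naive cells of the strains side by side. Of the 18 tested genes, 13 were higher and none was lower in TC Tn than in B6 Tn at an adjusted p below 0.05 (edgeR quasi-likelihood test, Benjamini-Hochberg over 13427 genes), where 25.8% of all tested genes were higher and 26.1% lower. At an unadjusted p below 0.05 the genes that differed numbered 14, and DESeq2 called none lower either. The median log2 fold change of the 18 was 1.72, against -0.01 over all tested genes. In TC Tfh against B6 Tfh, 10 were higher and 1 was lower, where 24.7% of all tested genes were higher and 25.9% lower, and the medians were 0.96 and -0.02. All 10 were among the 13, and Hist1h2ak, Hist1h2be and Hist2h2bb made up the rest of the 13. The share of all tested genes called higher in both cell types was not counted. For 14 of the 18 in Tn, and for 10 in Tfh, every TC library lay above every B6 library, which 29.6% of all tested genes also did in Tn and 24.5% in Tfh. Hist1h1a, Hist1h3a, Hist2h2bb and Hist4h4 passed the filter through their TC libraries, where they are high. Hist1h2ak passed with 12 counts in each of TC Tn 1, TC Tn 4 and B6 Tfh 4, and was not tested in the fit without B6 Tfh 4. A fit of the B6 libraries alone kept 12 members. The counts and medians given here are thus partly set by the filter.

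Linker histones, which bind the DNA between nucleosomes, were higher in TC for each of the 4 H1 genes tested. Hist1h1c had 28.3, 40.9 and 25.7 CPM in TC Tn, against 5.35, 6.23, 4.50 and 5.02 CPM in B6 Tn. Every TC Tn library lay above every B6 Tn library, a 5.84-fold difference (log2 2.55 ± 0.17 SE, adjusted p = 8.45e-09). In Tfh it had 10.4, 11.9 and 10.8 CPM in TC and 3.13, 4.41, 2.91 and 4.45 CPM in B6, a 2.94-fold difference (log2 1.56 ± 0.20, adjusted p = 1.63e-05). Hist1h1e had 2.09, 3.44 and 4.53 CPM in TC Tn, against 0.347, 0.601, 0.439 and 0.694 CPM in B6 Tn. It was 6.26-fold higher in TC Tn (adjusted p = 6.5e-06) and 4.00-fold higher in TC Tfh than in B6 Tfh (adjusted p = 8.34e-05). Hist1h1d differed by 3.19-fold in Tn and 2.55-fold in Tfh in the same direction (adjusted p = 0.00338 and 0.00399).

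Hist1h1a (H1) and Hist1h3a (H3) are neighbours on chromosome 13 that lie 1279 bases apart on opposite strands, and both were nearly uncounted in B6. Hist1h3a had 20, 18 and 18 counts in the TC Tn libraries and 2, 0, 0 and 2 in the B6 Tn libraries. In Tfh it had 7, 11 and 10 counts in TC and 1 in each of the 4 B6 libraries. Hist1h1a had 25, 33 and 23 counts in TC Tn and 4, 2, 1 and 1 in B6 Tn, and in Tfh 8, 13 and 7 in TC and 3, 1, 1 and 1 in B6. No B6 library overlapped a TC library of the same cell type for either gene. The fitted differences in Tn were log2 4.12 ± 0.46 for Hist1h3a (adjusted p = 1.1e-07) and 3.73 ± 0.39 for Hist1h1a (adjusted p = 2.43e-07), and in Tfh 3.23 ± 0.54 (adjusted p = 3.39e-05) and 2.71 ± 0.54 (adjusted p = 0.000357). With so few B6 counts the size of these folds is imprecise, and both genes passed the filter through their TC libraries.

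The tested H4 genes, whose product pairs with H3 in the nucleosome core, were not all called between the strains. Differences between the responses of these genes were not tested. Hist2h4 had 3.17, 4.30 and 3.44 CPM in TC Tn, against 0.297, 1.09, 0.659 and 1.496 CPM in B6 Tn, and was 4.01-fold higher in TC (adjusted p = 1.69e-05). Hist4h4, alone on chromosome 6, had 1.13, 1.72 and 1.09 CPM in TC Tn and 0.297, 0.219, 0.110 and 0.374 CPM in B6 Tn, and was 4.94-fold higher (adjusted p = 6.98e-05). Hist1h4d was 3.05-fold and Hist1h4c 3.41-fold higher in TC Tn (adjusted p = 2.27e-05 and 0.00015). In Tfh these 4 genes were 2.42-, 2.60-, 2.01- and 1.88-fold higher in TC, and the last, Hist1h4c, had an adjusted p of 0.0436, which rose as far as 0.14 and ended the call without any of B6 Tfh 3, B6 Tfh 4, B6 Tn 2, TC Tfh 1, TC Tfh 2, TC Tfh 4 and TC Tn 2. That call was also lost with DESeq2 (adjusted p = 0.0919), without the filter (0.0813) and with only the groups compared (0.0675). Hist1h4i had 1.99, 1.66 and 2.24 CPM in TC Tn and 1.68, 1.37, 1.59 and 1.496 CPM in B6 Tn, with overlapping groups and a log2 difference of 0.33 ± 0.19 (adjusted p = 0.171).

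Among H2A and H2B genes, whose products pair with each other, genes higher in TC stood beside genes that were not called. Hist2h2ac (H2A) had 1.77, 2.33 and 2.51 CPM in TC Tn, against 0.297, 1.09, 0.384 and 0.694 CPM in B6 Tn, and was 3.50-fold higher in TC Tn (adjusted p = 0.00018) and 2.76-fold higher in TC Tfh (adjusted p = 0.00141). Hist2h2be (H2B), which starts 238 bases away on the other strand, had 12.4, 11.5 and 14.1 CPM in TC Tn and 13.6, 13.7, 13.6 and 15.1 CPM in B6 Tn, with overlapping groups and a log2 difference of -0.17 ± 0.11 (adjusted p = 0.224). In Tfh it had 5.73, 6.79 and 6.33 CPM in TC and 7.12, 8.71, 6.56 and 9.76 CPM in B6. That was the single lower call, at 1.29-fold lower in TC (log2 -0.37 ± 0.14, adjusted p = 0.0368), in groups that overlapped, and it was lost without any of B6 Tfh 2, B6 Tfh 4, TC Tfh 1 and TC Tfh 4 (adjusted p up to 0.152), with only the groups compared (0.1) and with the mouse as a random replicate block (0.0574). The difference between the neighbours' responses was not tested.

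Hist3h2a (H2A) and Hist3h2ba (H2B) of chromosome 11 were called in neither strain comparison. Hist3h2a had 4.40, 4.11 and 4.04 CPM in TC Tn and 3.42, 4.70, 3.57 and 5.02 CPM in B6 Tn (log2 -0.02 ± 0.18, adjusted p = 0.934). Hist3h2ba had 4.24, 3.56 and 5.30 CPM in TC Tn and 3.96, 5.14, 4.45 and 3.15 CPM in B6 Tn (log2 0.04 ± 0.18, adjusted p = 0.868). The TC range lay within the B6 range for Hist3h2a, and the ranges overlapped for Hist3h2ba. Hist1h2bc (H2B) had 1.93, 2.702 and 2.02 CPM in TC Tn and 1.24, 1.86, 1.54 and 1.66 CPM in B6 Tn, with no overlap but an adjusted p of 0.0577. Hist1h2bc was called higher in TC Tn with library totals without TMM and in the fit without B6 Tn 2. Together with Hist1h4i and Hist2h2be, 5 of the 18 genes were thus called higher in TC in neither cell type with TMM scaling. That does not show that their levels are equal. Hist1h2ak, Hist1h2be and Hist2h2bb were 4.14-, 2.17- and 3.12-fold higher in TC Tn (adjusted p = 0.00506, 0.000897 and 0.00367), and their Tfh differences had adjusted p-values of 0.854, 0.108 and 0.312.

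**Figure D2:**
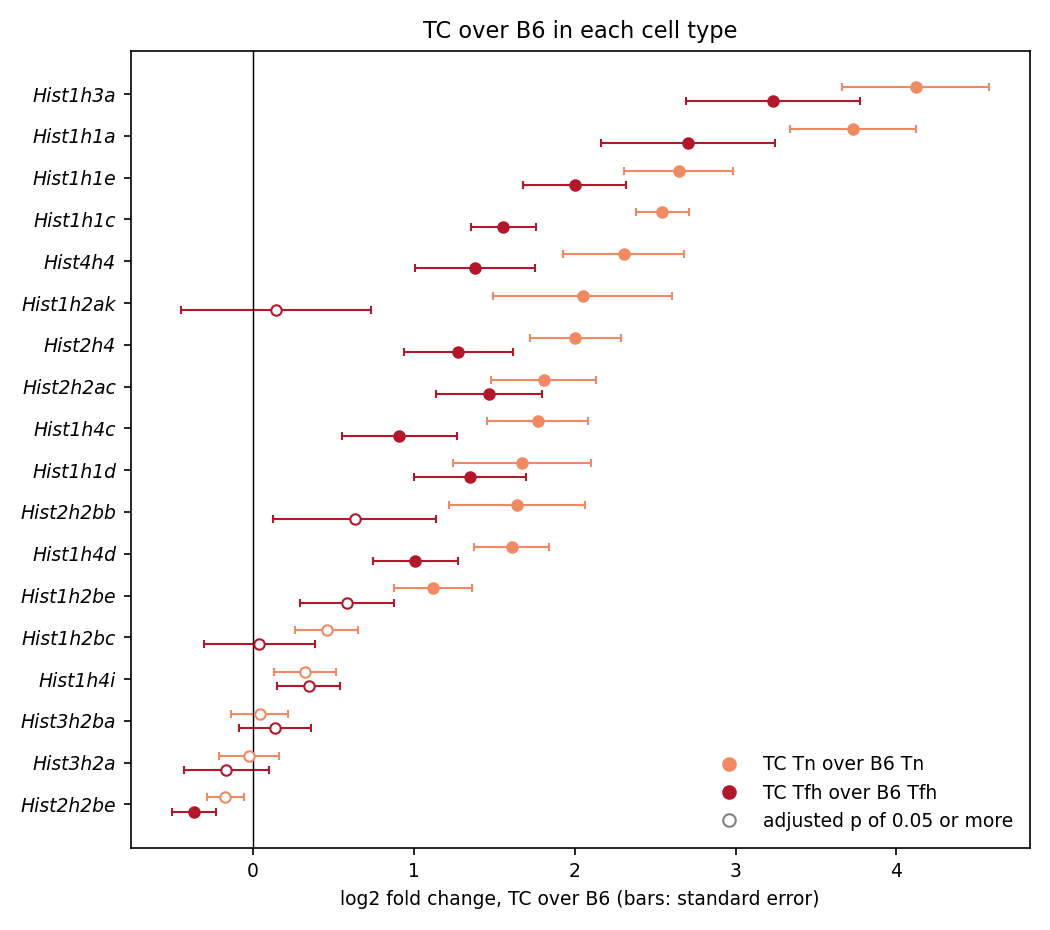
Log2 fold change of TC over B6 (x axis) for each of the 18 tested genes (rows), in Tn and in Tfh, with the standard error as bars. Filled points passed an adjusted p of 0.05. Hist1h3a and Hist1h1a stand farthest to the right at 4.12 and 3.73 in Tn, and Hist2h2be, Hist3h2a and Hist3h2ba stand at -0.17, -0.02 and 0.04 in Tn.

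The second comparison set Tfh against Tn within each strain, where the 2 libraries came from the same mice. In TC, 12 of the 18 tested genes were lower and none was higher in Tfh, where 32.4% of all tested genes were lower and 33.8% higher. In B6, 5 of the 18 were lower and none was higher. Of all tested genes 33.4% were lower in B6 Tfh, a larger share, and 37.1% higher. The counts of 0 higher genes are by edgeR, and at an unadjusted p below 0.05 the genes that differed in either direction numbered 13 in TC and 5 in B6. DESeq2 called 1 gene higher and 9 lower in TC Tfh, and none higher and 6 lower in B6 Tfh. Every Tfh library lay below every Tn library for 12 of the 18 in TC and 5 in B6, as for 28.2% and 21.6% of all tested genes, and above it for 1 in TC (Hist1h1d) and none in B6. Scaled by library totals without TMM, the shares of all genes called were 25.2% lower and 40.1% higher in TC, and 24.1% lower and 45.8% higher in B6, since the median of all genes moved by 0.11 and 0.13 on the log2 scale. The median log2 fold change of the 18 was -0.97 in TC and -0.14 in B6, against -0.01 and 0.02 over all tested genes. The limit set by the filter holds here as well, since Hist1h1a, Hist1h2ak, Hist1h3a and Hist2h2bb had their highest group mean in TC Tn. The 5 genes lower in B6 Tfh, namely Hist2h2be, Hist1h2bc, Hist3h2a, Hist3h2ba and Hist1h1c, were all among the 12 lower in TC Tfh. The share of all tested genes called lower in both strains was not counted.

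Of the genes lower in Tfh in each strain, Hist2h2be stood lower by 2.19-fold in TC (log2 -1.13 ± 0.14, adjusted p = 1.45e-06) and by 1.91-fold in B6 (log2 -0.93 ± 0.11, adjusted p = 7.32e-07), from the values given above. Hist1h2bc had 0.591, 0.660 and 0.456 CPM in TC Tfh, against 1.93, 2.702 and 2.02 CPM in TC Tn, and 0.539, 0.674, 0.430 and 0.536 CPM in B6 Tfh, against 1.24, 1.86, 1.54 and 1.66 CPM in B6 Tn. Every Tfh library lay below every Tn library, and the gene was 4.17-fold lower in TC (adjusted p = 3.14e-06) and 3.12-fold lower in B6 (adjusted p = 1.04e-05). Hist3h2a had 1.54, 2.04 and 1.71 CPM in TC Tfh and 1.51, 2.07, 1.45 and 2.79 CPM in B6 Tfh, below every Tn library of its strain. It was 2.57-fold lower in TC and 2.33-fold lower in B6 Tfh (adjusted p = 8.57e-05 and 2.5e-05). Hist3h2ba had 2.84, 2.44 and 2.45 CPM in TC Tfh and 1.99, 2.80, 1.99 and 2.52 CPM in B6 Tfh, likewise below the Tn libraries, with falls of 1.83-fold and 1.96-fold (adjusted p = 0.00158 and 0.000138). Hist1h1c fell by 3.08-fold in TC Tfh against TC Tn (adjusted p = 2.26e-07) and by 1.55-fold in B6 Tfh against B6 Tn (adjusted p = 0.0136).

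The other 7 genes lower in TC Tfh than in TC Tn were Hist1h1a, Hist1h2be, Hist1h3a, Hist1h4c, Hist1h4d, Hist2h2bb and Hist2h4. Hist1h1a was 2.89-fold lower in TC Tfh (adjusted p = 0.000167), Hist2h4 2.05-fold lower (adjusted p = 0.00233) and Hist1h3a 2.00-fold lower (adjusted p = 0.00576, but 0.12 with DESeq2). Hist1h4c had an adjusted p of 0.0129 and was no longer called without TC Tfh 1 or TC Tn 4 (up to 0.0649) or with DESeq2 (0.0659). Hist2h2bb had an adjusted p of 0.0329 and was no longer called without TC Tfh 1, TC Tfh 2, TC Tn 1 or TC Tn 2 (up to 0.119). That call was also lost with the mouse as a random replicate block in limma voom (adjusted p = 0.076), with DESeq2 (0.1), with library totals without TMM (0.0556) and with the legacy quasi-likelihood fit (0.0561), an alternative added after the data were seen. Hist1h1e and Hist2h2ac had log2 differences of -0.23 ± 0.26 and -0.26 ± 0.28 in TC, and Hist1h1d of 0.42 ± 0.33, none of them called. Hist1h2ak, at log2 -1.13 ± 0.53 and an adjusted p of 0.0664, was called with the mouse as a replicate block in edgeR, which gave 13 lower genes in TC, and in limma voom, which gave 12.

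**Figure D3:**
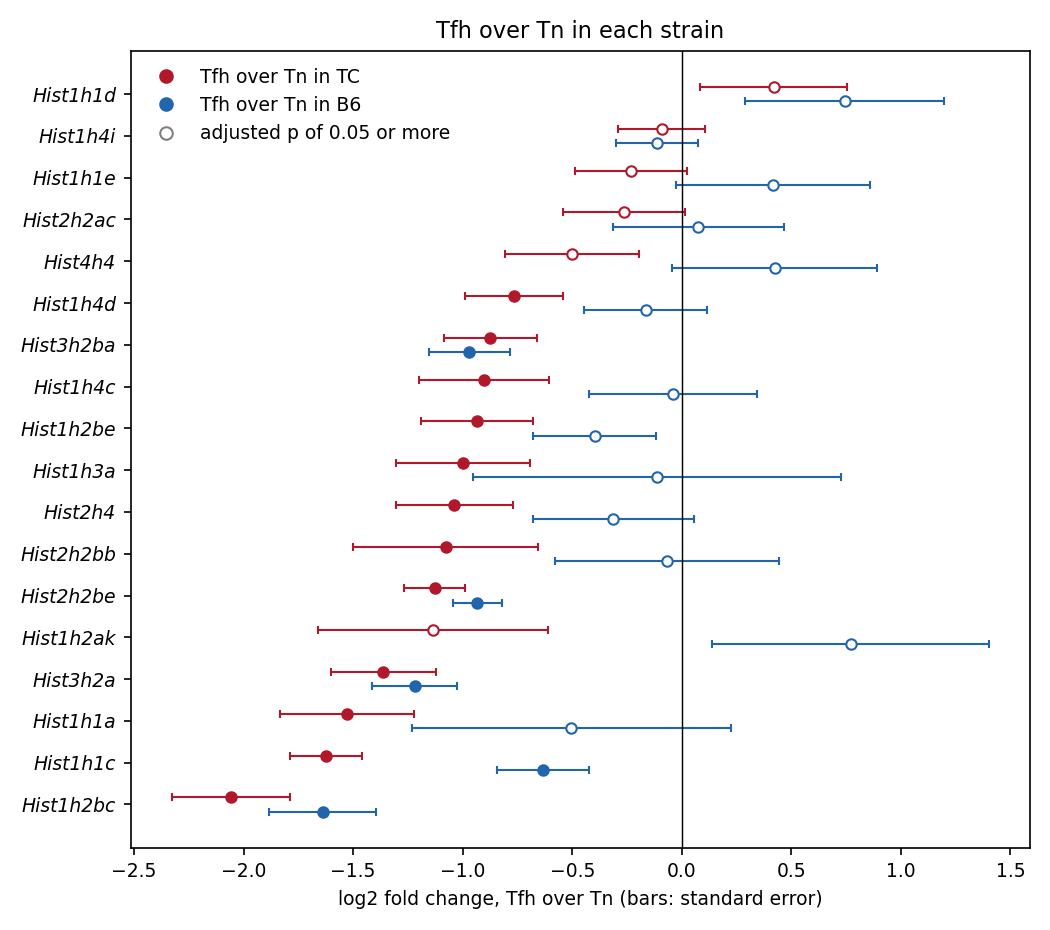
Log2 fold change of Tfh over Tn (x axis) for each of the 18 tested genes (rows), in TC and in B6, with the standard error as bars. Filled points passed an adjusted p of 0.05. Hist1h2bc stands farthest to the left at -2.06 in TC and -1.64 in B6, and Hist1h1c stands at -1.62 in TC and -0.63 in B6.

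Whether the Tfh to Tn ratio differed between the strains was tested by the interaction. No gene of the 18 was called in either direction by edgeR, where 0.864% of all tested genes had a higher and 1.24% a lower ratio in TC, and 2 of the 18 had an unadjusted p below 0.05. The estimates were below 0, a lower ratio in TC, for 16 of the 18, with a median of -0.62 against -0.01 over all tested genes. Hist1h1c had the smallest p, with a log2 difference of -0.99 ± 0.27 and an adjusted p of 0.0751. With the mouse as a replicate block that p was 0.007, with DESeq2 it was 0.0129, and without TC Tn 4 it was 0.0325, and over all alternatives it ran from 0.007 to 0.179. The larger number of genes called lower in TC Tfh than in B6 Tfh, each against its own Tn, does not in itself show a difference between the strains. The missing calls of the interaction do not show equal ratios either.

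Among the 43 members too low to test, the summed level also separated the strains. It was 4.37, 5.08 and 5.30 CPM in TC Tfh and 4.67, 5.04 and 5.95 CPM in TC Tn, against 1.73, 2.49, 1.72 and 2.25 CPM in B6 Tfh and 1.14, 2.46, 1.37 and 2.24 CPM in B6 Tn. No TC library overlapped a B6 library, while Tfh and Tn overlapped in each strain. Hist1h3e (H3) had 7, 5 and 9 counts in TC Tfh and 11, 8 and 7 in TC Tn, against 1, 1, 3 and 2 in B6 Tfh and 2, 0, 0 and 1 in B6 Tn. Hist1h2bh (H2B) had 3 to 7 counts in each of the 6 TC libraries and 0 or 1 in each of the 8 B6 libraries. Hist2h3c2 (H3) ran the other way in Tn, with 3, 2 and 8 counts in TC and 4, 7, 8 and 10 in B6. Hist1h1b, the remaining H1 gene, had 5, 6 and 8 counts in TC Tfh and 1, 0 and 1 in TC Tn, and 4, 1, 3 and 1 in B6 Tfh and 0, 1, 1 and 0 in B6 Tn. Its counts lay higher in Tfh than in Tn, and it was called higher in TC Tfh than in TC Tn by DESeq2 and in edgeR without the filter. These genes were chosen after their values were seen.

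Lists of DNA replication and division genes are given here beside the histone genes, with no test between the lists. Their counts, and those of the lists that follow, stand against the shares of all tested genes given above, which were 24.7% to 26.1% in each direction between the strains and 32.4% to 37.1% between the cell types. Of 33 S phase genes, 18 were higher and 8 lower in TC Tfh than in TC Tn, and 21 were higher and 5 lower in B6 Tfh than in B6 Tn. Of 20 mitosis genes, 15 were higher and 1 was lower in TC Tfh, and 19 were higher and none was lower in B6 Tfh. The median log2 fold changes of Tfh over Tn were 0.33 in TC and 0.47 in B6 for S phase genes, and 1.81 and 2.40 for mitosis genes. Mki67, a marker of cycling cells, averaged 51.3 ± 4.70 CPM in TC Tfh and 2.28 ± 0.669 in TC Tn, and 46.3 ± 8.83 in B6 Tfh and 2.64 ± 0.564 CPM in B6 Tn. Between the strains, 17 S phase genes and 12 mitosis genes were lower and none was higher in TC Tfh than in B6 Tfh. In Tn, 4 S phase genes were higher and 9 lower in TC, and 2 mitosis genes were higher and 2 lower, counts near or below those shares. Mcm2, a subunit of the replicative helicase, was 1.42-fold lower in TC Tfh and 1.72-fold lower in TC Tn than in B6 (adjusted p = 3.35e-07 and 1.23e-09). The summed mitosis list spanned 122 to 148 CPM in TC Tfh, 27.8 to 35.5 in TC Tn, 148 to 197 in B6 Tfh and 30.7 to 34.4 CPM in B6 Tn.

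**Figure D4:**
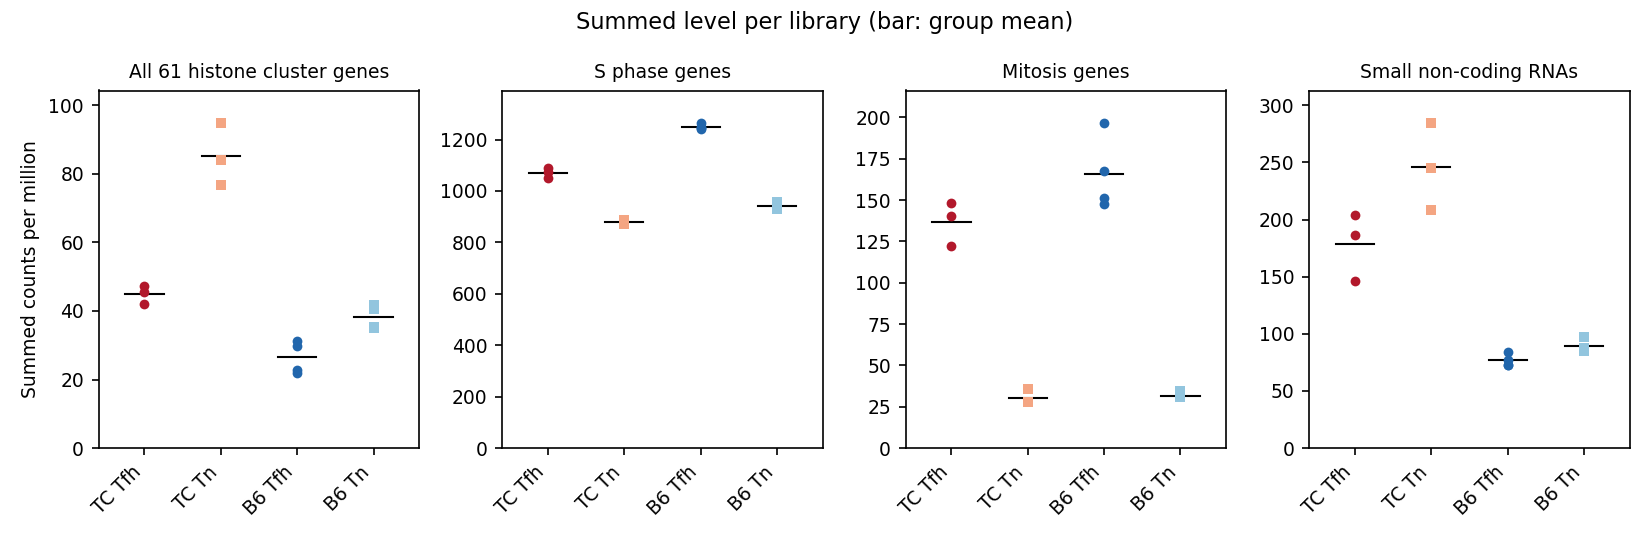
Summed CPM per library (y axis, from 0) in TC Tfh, TC Tn, B6 Tfh and B6 Tn, for the 61 histone cluster genes, 33 S phase genes, 20 mitosis genes and 605 small non-coding RNAs, with a bar at each group mean. The histone sum is highest in TC Tn (76.6 to 94.8 CPM), where the mitosis sum is 27.8 to 35.5 CPM, and the small RNA sum spans 146 to 204 CPM in TC Tfh and 208 to 284 in TC Tn, against 73.2 to 83.7 in B6 Tfh and 84.9 to 97.5 CPM in B6 Tn.

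Among regulators of histone transcription, the strain differences were in factors other than the common coactivator. Npat, the coactivator of the clusters, averaged 48.4 ± 2.57 CPM in TC Tfh, 46.6 ± 1.20 in TC Tn, 51.5 ± 3.51 in B6 Tfh and 47.9 ± 4.42 CPM in B6 Tn, and was called in none of the comparisons (adjusted p = 0.244 to 0.966). Of 14 genes of this list, 5 were higher and 2 lower in TC Tfh than in B6 Tfh, and 5 were higher and none was lower in TC Tn than in B6 Tn. Hinfp, a factor of H4 promoters, was 1.30-fold and 1.37-fold higher (adjusted p = 0.000282 and 3.85e-05). In Tfh against Tn, 3 were higher and 8 lower in TC, and 2 were higher and 6 lower in B6. The rises there were in cyclins, with Ccne2 at log2 1.87 in TC and 2.19 in B6 (adjusted p = 1.33e-05 and 2.82e-07).

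Slbp, whose product binds the stem-loop, averaged 51.1 ± 0.280 CPM in TC Tfh and 35.4 ± 0.147 in TC Tn, and 52.8 ± 0.897 in B6 Tfh and 32.5 ± 2.33 CPM in B6 Tn. It was higher in Tfh by 1.34-fold in TC and 1.48-fold in B6 (adjusted p = 5.93e-06 and 1.65e-08) and was called in neither strain comparison (adjusted p = 0.427 in Tfh and 0.184 in Tn). Of 27 genes of histone mRNA 3' end processing and turnover, 5 were higher in each comparison of the strains or of the cell types. Among them were Slbp in Tfh and Zfp473 in TC. Of the list, 17 were lower in TC Tfh than in TC Tn and 14 in B6 Tfh than in B6 Tn. Between the strains, 12 were lower in TC Tfh than in B6 Tfh and 10 in TC Tn than in B6 Tn. Zfp473, whose human counterpart ZNF473 takes part in histone pre-mRNA processing with the U7 particle, stood apart in the strain comparisons. It had 8.27, 8.18 and 7.58 CPM in TC Tfh and 12.4, 13.0 and 11.3 CPM in TC Tn, against 0.917, 0.726, 1.29 and 1.45 CPM in B6 Tfh and 0.941, 0.765, 1.26 and 1.07 CPM in B6 Tn. It was 7.24-fold higher in TC Tfh and 11.8-fold higher in TC Tn than in B6 (adjusted p = 3.29e-09 and 4.88e-11). Lsm11, a protein of the U7 particle, was called in neither strain comparison (adjusted p = 0.292 and 0.468) and fell by 2.01-fold in TC Tfh and 2.08-fold in B6 Tfh against Tn (adjusted p = 7.59e-08 and 4.29e-09).

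Replication-independent histones are made outside S phase as well, from polyadenylated messages. Of 10 tested, 1 was higher and 5 were lower in TC Tfh than in B6 Tfh, and 2 were higher and 4 lower in TC Tn than in B6 Tn, with median log2 fold changes of -0.23 and -0.13. Cenpa, the centromeric H3, was the gene higher in both, at log2 0.43 and 0.81 (adjusted p = 2.96e-06 and 2.14e-09). H2afv, an H2A.Z form, was lower by log2 -0.76 and -0.59 (adjusted p = 1.13e-07 and 1.5e-06). H2afz averaged 136 ± 19.98 CPM in TC Tfh and 61.9 ± 8.68 in TC Tn, and 152 ± 12.3 in B6 Tfh and 65.2 ± 3.37 CPM in B6 Tn. It was higher in Tfh by 2.04-fold in TC and 2.13-fold in B6 (adjusted p = 1.11e-06 and 7.73e-08), and H1f0, a linker histone of non-dividing cells, by 7.52-fold and 10.9-fold (adjusted p = 6.9e-10 and 9.44e-12). Of 23 histone chaperones, 5 were higher and 10 lower in TC in each cell type, 4 were higher and 6 lower in TC Tfh than in TC Tn, and 4 were higher and 8 lower in B6 Tfh than in B6 Tn.

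Small nuclear, nucleolar and Cajal body RNAs, which like most histone messages lack a poly(A) tail, moved with the strain in the same direction as the histone genes. The count table held 605 of them, and 101 passed the filter, which a gene could do through 1 group alone. Of the 101 tested, 64 were higher and none was lower in TC Tfh than in B6 Tfh. In TC Tn against B6 Tn, 83 were higher and none was lower. The median log2 fold changes were 1.08 in Tfh and 1.45 in Tn. As for the histone genes, these counts and medians may be partly set by the filter. Over all 605, tested or not, the summed level spanned 146 to 204 CPM in TC Tfh and 208 to 284 CPM in TC Tn. In B6 it spanned 73.2 to 83.7 CPM in Tfh and 84.9 to 97.5 CPM in Tn. In Tfh against Tn, 3 of the 101 tested were higher and 42 lower in TC, and 2 were higher and 23 lower in B6. This list was drawn up after the data were seen. Whether libraries were poly(A)-selected is not given in the sources used here, sequencing batch is not in the labels, and the part of RNA selection in the histone results was not tested.

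The sorted cells carried the markers of their labels. The T cell list of 9 genes summed to 6394 to 10141 CPM over the 14 libraries. All 7 Tfh markers were higher and all 7 naive T cell markers lower in Tfh than in Tn in each strain. The B cell list of 11 genes summed to 79.9 to 105 CPM in TC Tfh and 1.17 to 2.29 in TC Tn, and to 111 to 123 in B6 Tfh and 1.39 to 2.67 CPM in B6 Tn. Of its 6 tested genes, 5 were higher in Tfh in each strain, with Cd22 at 49.3 to 82.9 CPM in TC Tfh and 85.0 to 104 in B6 Tfh. Fcer2a was at 0 in every TC library. The germinal centre B cell list of 7 genes summed to 126 to 166 CPM in TC Tfh, 33.5 to 36.4 in TC Tn, 140 to 163 in B6 Tfh and 38.5 to 43.7 CPM in B6 Tn. The plasma cell list of 8 genes summed to 251 to 284, 62.9 to 77.5, 318 to 368 and 70.0 to 77.6 CPM in the same 4 groups. T cells also express leading genes of these lists (Fas, S1pr2, Xbp1 and Irf4), Rgs13 and Tnfrsf17 were at 0 in every TC library, and the part of such cells in the Tfh results was not tested. Myeloid, NK and CD8, erythroid and platelet lists summed to at most 38.5, 100.5, 6.15 and 4.48 CPM in any library.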

How the data were processed

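RNA of sorted splenic Tfh and Tn cells of 7 mice (3 TC, 4 B6) gave 14 libraries made with a TruSeq Stranded kit, per the labels' protocols. The table that the authors deposited holds read counts for each gene symbol. The submitters' processing notes name STAR 2.7, the mm10 build and DESeq2. How and on which strand reads were counted, and against which annotation, is not given in the sources used here. Titles were followed where the source name of Tn samples speaks of follicular helper cells, and strain labels where the extraction text speaks of WT and KO.

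CPM were computed per library total. In the largest library 3 counts are 0.149 CPM and in the smallest 0.198 CPM, a floor for counting error only. The 13427 genes passing filterByExpr at a count minimum of 10 entered a robust quasi-likelihood fit in edgeR 4.0.16 (R 4.3.3) with TMM scaling, 4 group means and no block. The threshold was an adjusted p (Benjamini-Hochberg) of 0.05. Replicates are separate mice, and within groups no libraries were duplicates (chi-square over degrees of freedom 5.33 to 20.4). Tfh and Tn of a mouse share the animal, which pairs them, and their deviations from the group means correlated at 0.0395 to 0.299. Alternatives were DESeq2 1.42.0, other scalings and filters, a replicate block (edgeR, and limma 3.58.1 voom with a consensus correlation of 0.225), the compared groups alone, and leaving out each library. The fit was tested on simulated counts.

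The members and gene lists were chosen with earlier results of these data known, and list counts are not independent evidence. The naming rule took the 10 members of highest mean CPM, up to 5 called members per direction and comparison with the smallest adjusted p, members with a called interaction, Slbp, Npat, Mki67 and H2afz, and up to 3 genes per list. Other members and genes named were added after their values were seen. Gene positions and transcripts came from GENCODE M21, of the same build as mm10, and promoters from RefSeq (GRCm38.p6), matched by symbol.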

Additional observations from a re-analysis of the deposited data

Results flagged for a closer look

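Each of 38 groups of 4 libraries with more than 1 level was searched for a library far from the other 3, and 4 were found. Chance gives about 1 in 20 such groups, and the TC groups of 3 libraries were not searched. Hist2h2be was 15.118 CPM in B6 Tn 4, against 13.57 to 13.7133 CPM in the other B6 Tn libraries. Hist1h2ak was 0.219593 CPM in B6 Tn 3, against 0.0990513 to 0.109269 CPM in the others. Hist1h1a was 0.161749 CPM in B6 Tfh 1, from 3 counts, against 0.0518618 to 0.0538028 CPM in the others, from 1 count each. Hist1h3a was 0.0518618 CPM in B6 Tfh 2, against 0.0536283 to 0.0539163 CPM in the others. All 4 of these B6 Tfh libraries held 1 count of Hist1h3a, so the values differ by library total alone.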

How the results depend on the processing

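Of 41 calls, 36 held under every alternative that gave a value, and of 890 recomputed values 28 fell short of the threshold and 0 reversed. With a count minimum of 50, 6 members were tested, and the counts were 5 lower in TC Tfh against TC Tn, 3 higher in TC Tfh against B6 Tfh and 3 higher in TC Tn against B6 Tn. With no filter, 21 were higher in TC Tn against B6 Tn and 1 (Hist1h1b) was higher in TC Tfh against TC Tn, as with DESeq2 (1). The lower call in TC Tfh against B6 Tfh (Hist2h2be) became 0 with only the groups compared and with mouse as a random replicate block, and ranged from 0 to 1 over fits without 1 library. The lower count of the interaction (Hist1h1c) became 1 with DESeq2 and with mouse as a replicate block, and ranged from 0 to 1, being 1 without TC Tn 4. The higher count in B6 Tfh against B6 Tn ranged from 0 to 1, being 1 (Hist1h1d) without B6 Tfh 1. The block changed no other count by over 1.5 times. The summed level in TC Tfh was 42.1 CPM by TMM factors from all genes and 42.97 CPM by those of the tested genes, both chosen after seeing the data. The causes were not tested, other than the smaller or larger number of genes that each filter leaves. Depth limits the 43 untested members, whose summed counts were 244 in TC Tfh, 278 in TC Tn, 154 in B6 Tfh and 135 in B6 Tn.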
